A study of Mus musculus with 4 samples.

Results

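The cells described here are those of mouse ovarian cancer ascites that carried RNA of mast cell or basophil granule proteases. They were selected by measured values. A cell with at least 200 genes and at most 33% mitochondrial UMIs (unique molecular identifiers, each standing for 1 captured RNA molecule) was a member if it held at least 3 UMIs of Cpa3, Mcpt4, Cma1 and Tpsb2 together, or at least 3 of Mcpt8. It also had to hold at most 1 Cd3 UMI (Cd3d, Cd3e, Cd3g), at most 2 of Cd79a and Cd79b, and at most 2 keratin UMIs (Krt7, Krt8, Krt18, Krt19). Of 45178 cells kept out of 46342 deposited, 57 were members. A member was placed in the basophil class if it held at least 3 Mcpt8 UMIs and at most 1 UMI of Mcpt4, Cma1 and Tpsb2 together, and in the mast class otherwise. The mast class had 56 cells and the basophil class 1. Levels of these 5 genes in the members are therefore a description and were not tested.

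C57BL/6 mice, female by the study's methods, received ID8-Trp53-/- cells, a mouse ovarian surface epithelial line without Trp53, into the peritoneal cavity. All mice carried this tumour, which had 7 days to engraft. The 4 groups were DMSO with IgG control antibody (control), BTYNB with IgG control antibody (BTYNB), DMSO with PD1 blocking antibody (anti-PD-1) and BTYNB with PD1 blocking antibody (combination). BTYNB is a small molecule inhibitor of the RNA-binding protein Igf2bp1, and PD-1 is an inhibitory receptor of T cells. The labels give 50 mg/kg of BTYNB and 100 ng of antibody per dose, given repeatedly until about 3 mL of ascites, and the study's methods give other amounts. Age is given in the study's methods and not in the labels. Erythrocytes were removed and cells were frozen. Removal of dead cells is stated in the study's methods for the samples in general and in the labels only conditionally. Each group was 1 library of pooled animals, so no difference between groups had a replicate check and no p-value was computed.

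Mast cells are tissue-resident cells that store histamine, serotonin, proteoglycan-bound chymases, tryptases and carboxypeptidase A3 in granules and release them when IgE on their high-affinity receptor is cross-linked or when other receptors are engaged. Their survival depends on the receptor Kit, and those of the mouse peritoneal cavity are of the connective tissue type. Basophils are short-lived blood granulocytes that share the IgE receptor and Gata2 with mast cells but are marked by the protease Mcpt8 and by little or no Kit.

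The libraries held between 78603888 and 114600397 UMIs and 7042 to 18283 kept cells. The BTYNB library reached down to cells with 869 UMIs, whereas the lowest cell had 4438 UMIs in the control, 3533 in the anti-PD-1 and 5115 in the combination library. Members had median UMI counts of 5450 in the control, 6440 in the BTYNB, 6899 in the anti-PD-1 and 7006 in the combination library. Cells were compared with the other leukocytes of their own library, cells that were no members and held at least 3 UMIs of Ptprc, Cd52 and Laptm5 with at most 2 keratin UMIs. There were 348, 11742, 423 and 1948 of them in the control, BTYNB, anti-PD-1 and combination libraries. No member shared its barcode with a cell of another library, which 4 to 11 cells of each library did.

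The label was checked with 11 further mast cell markers that the rule had not used: Tpsab1, Kit, Mrgprb1, Mrgprb2, Hdc, Fcer1a, Ms4a2, Slc18a2, Gata2, Cyp11a1 and Rgs13. The members fell into unlike kinds. Of the 57, 30 held at least 3 of the 11 genes, 26 held at least 7 and 13 held all 11. These 30 are called mast cell-like below. The other 27 held 0 to 2 of them and are called marker-poor. Mast cell-like cells numbered 4 of 5 members in the control library, 19 of 24 in the BTYNB library, 1 of 20 in the anti-PD-1 library and 6 of 8 in the combination library. The requirement of 3 genes was added after the values had been seen. Among other leukocytes it was met by 0 of 348 cells in the control, 2 of 11742 in the BTYNB, 0 of 423 in the anti-PD-1 and 1 of 1948 in the combination library. Among cells with at least 3 keratin UMIs, which were no members, it was met by 14 of 7169 in the control, 31 of 4207 in the BTYNB (0.737%), 8 of 11111 in the anti-PD-1 and 12 of 5002 in the combination library, at median UMI counts of 9870, 15285, 7191 and 11361 against 5331, 2354, 4204 and 6776 in other leukocytes.

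**Figure D1:**
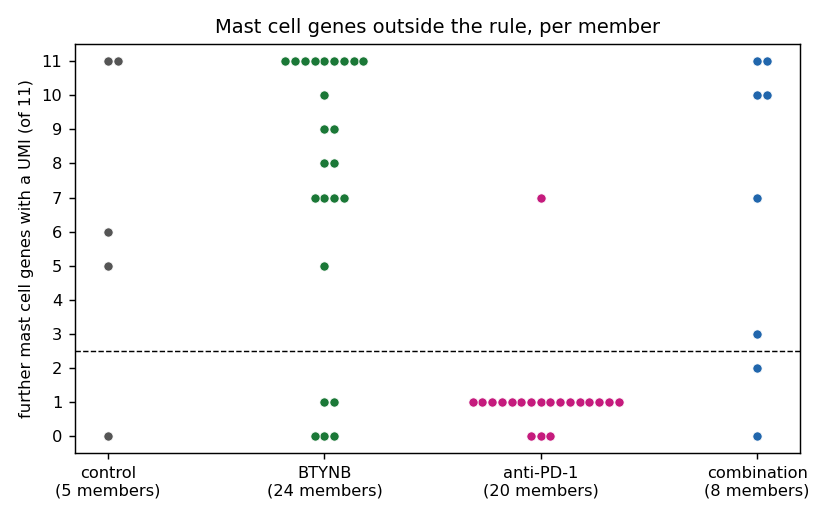
The plot of members by how many of 11 mast cell markers outside the rule they carried (y axis, number of genes with a UMI), 1 point per member and 1 column per library, with a dashed line under 3 genes. Anti-PD-1 members sit at 0 or 1 gene except for 1 cell with 7, while 13 cells of the other libraries carry all 11.

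The 1 cell of the basophil class went against its name. It lay in the BTYNB library and was the largest member, with 39033 UMIs and 6422 genes. It held 5 Mcpt8 UMIs and 5 Kit UMIs, and 15 UMIs of Mki67, a gene of proliferating cells. It held 0 UMIs of Cpa3, of Fcer1a and Ms4a2, which encode chains of the IgE receptor, of Gata2, of Cd200r3, an activating receptor of basophils, and of Prss34, a basophil protease. It is therefore left without a cell type name, and no cell is called a basophil here. With 0 cells of the basophil class, where a count of 0 allows up to 3, the shares were limited to at most 0.0383% of kept cells in the control, 0.0250% in the anti-PD-1 and 0.0426% in the combination library.

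Proximal promoter sequence of genes that led the mast cell-like cells is shown because Gata2, a zinc finger factor of mast cell and basophil development that binds GATA motifs, was itself among those genes. The sequences are the 120 bases before the annotated start (RefSeq, GRCm38.p6), written from 5′ to 3′ on the gene's strand. Capitals mark matches to the motif AGATAA, whose reverse complement is TTATCT, to AGATAG, whose reverse complement is CTATCT, to TGATAA, whose reverse complement is TTATCA, or to TGATAG, whose reverse complement is CTATCA. They come from chr3:20242182-20242301 (minus strand) for Cpa3, chr14:56062311-56062430 (minus) for Mcpt4, chr14:55944676-55944795 (minus) for Cma1, chr1:173227230-173227349 (minus) for Fcer1a, chr19:11623720-11623839 (minus) for Ms4a2, chr1:40429450-40429569 (plus) for Il1rl1 and chr7:48456343-48456462 (minus) for Mrgprb1.
Cpa3: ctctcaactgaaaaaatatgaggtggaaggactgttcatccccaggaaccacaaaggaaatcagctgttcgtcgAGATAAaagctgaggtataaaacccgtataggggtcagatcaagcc
Mcpt4: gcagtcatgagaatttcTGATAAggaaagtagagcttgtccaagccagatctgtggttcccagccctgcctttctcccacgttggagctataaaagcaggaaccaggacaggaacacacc
Cma1: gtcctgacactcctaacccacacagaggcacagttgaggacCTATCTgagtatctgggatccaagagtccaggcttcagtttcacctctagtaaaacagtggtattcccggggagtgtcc
Fcer1a: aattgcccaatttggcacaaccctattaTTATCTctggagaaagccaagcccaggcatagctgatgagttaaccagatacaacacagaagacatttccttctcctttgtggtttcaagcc
Ms4a2: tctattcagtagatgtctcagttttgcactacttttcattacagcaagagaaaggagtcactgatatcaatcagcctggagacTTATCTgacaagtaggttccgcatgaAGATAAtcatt
Il1rl1: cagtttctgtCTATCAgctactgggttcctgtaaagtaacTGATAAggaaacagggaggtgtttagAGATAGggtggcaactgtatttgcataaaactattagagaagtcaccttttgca
Mrgprb1: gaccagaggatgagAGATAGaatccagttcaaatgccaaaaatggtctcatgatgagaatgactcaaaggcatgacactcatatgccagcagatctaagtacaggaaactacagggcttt

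Of the 3 proteases shown, Cpa3 had its match nearest the start, at position -46 (the match's first base, counted back from the start), against -79 in Cma1 and -103 in Mcpt4. Ms4a2 held 2 matches, at -37 and -11, and Il1rl1 held 3. Of 15 lead genes searched, 12 had an entry, and 9 of these 12 (75%) held at least 1 match in the 250 bases before a start. Counted by entry, as some genes have more than 1, 10 of their 15 entries (66.67%) held a match, and over all 32851 promoter entries of that length 8718 (26.54%) did. The entries of Mcpt8, Gata2 and Gzmb held none. The 15 lead genes were the 5 genes of the rule and leading genes outside it. Of the latter, Fcer1a, Mrgprb1, Gata2, Ms4a2, Tpsab1 and Mrgprb2 are among the markers that chose the cells. Most of the 15 were thus fixed by selection. All sequences shown hold a match, and 1 of the 2 entries of Il1rl1 is shown. The lead genes were chosen with their levels known, and a match is a description of letters.

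By the rule, members made up 0.0638% of kept cells in the control (5 of 7834; 95% Clopper-Pearson interval 0.0207 to 0.149%), 0.131% in the BTYNB (24 of 18283; 0.0841 to 0.195%), 0.166% in the anti-PD-1 (20 of 12019; 0.102 to 0.257%) and 0.114% in the combination library (8 of 7042; 0.0491 to 0.224%). All 4 intervals overlapped. These and all further intervals cover counting error only. Mast cell-like cells alone made up 0.0511% in the control (0.0139 to 0.131%), 0.104% in the BTYNB (0.0626 to 0.162%), 0.00832% in the anti-PD-1 (0.000211 to 0.0464%) and 0.0852% in the combination library (0.0313 to 0.185%). On this count the anti-PD-1 library, first by the rule, was last, and its interval lay below that of the BTYNB library. It overlapped those of the control and combination libraries. The limits on Cd3, Cd79 and keratin UMIs had left out further cells with enough marker UMIs and at least 3 further markers. These numbered 1 in the control, 3 in the BTYNB, 4 in the anti-PD-1 and 0 in the combination library. The anti-PD-1 ones were all over the keratin limit. The low anti-PD-1 share thus rests on 1 cell and in part on that limit. Whether the intervals stay apart with these cells counted was not tested.

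Set against leukocytes the order was another. Mast cell-like cells were 1.13% of leukocytes and members in the control (4 of 353; 0.310 to 2.88%), 0.162% in the BTYNB (19 of 11766; 0.0973 to 0.252%), 0.226% in the anti-PD-1 (1 of 443; 0.00572 to 1.25%) and 0.307% in the combination library (6 of 1956; 0.113 to 0.667%). The control interval lay above that of the BTYNB library and overlapped the other two. Among cells with at least 5115 UMIs, the lowest count in the combination library, the mast class made up 0.254% of the BTYNB library in place of 0.126%. The part of the leukocyte numbers in these shares was not tested.

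Cpa3 (carboxypeptidase A3) separated the kinds of member. It held 4 to 530 UMIs in every mast cell-like cell and 0 to 2 UMIs in every marker-poor one. Cma1, the mast cell chymase, did not: the 18 marker-poor anti-PD-1 members with Cma1 held 3 to 16 UMIs of it, and 1 mast cell-like cell of the BTYNB library held none. That cell had 24077 UMIs, 23 of Cpa3, 17 of Gata2 and 14 of Mki67, and no Mcpt4, Cma1 or Tpsb2, the chymase and tryptase genes.

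**Figure D2:**
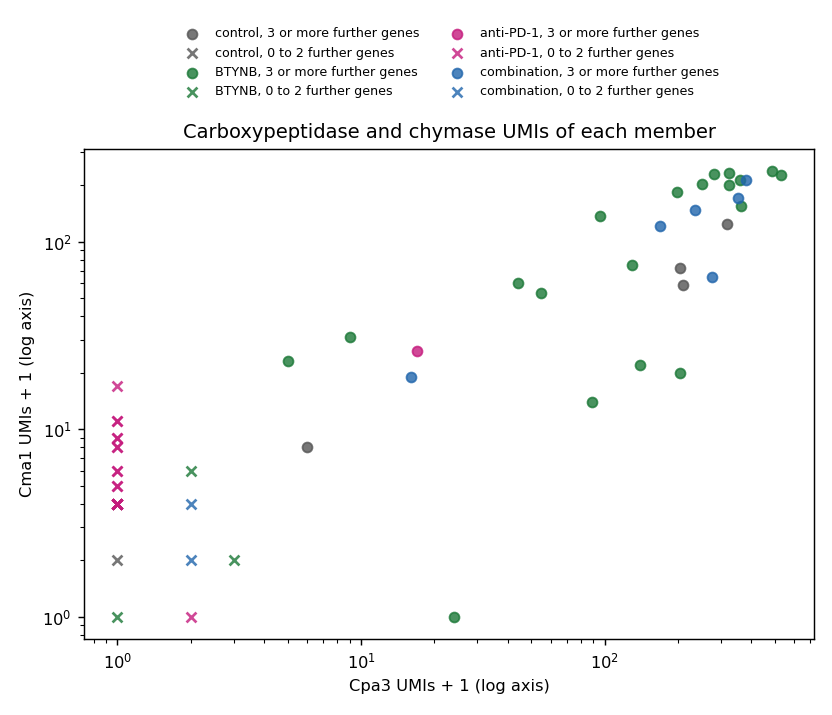
The plot of Cma1 against Cpa3 UMIs (both plus 1, log axes), 1 symbol per member, with circles for cells with 3 or more further mast cell markers and crosses for those with 0 to 2. Circles spread along Cpa3 up to 530 UMIs, while 18 of the 19 anti-PD-1 crosses stand in a column at 0 Cpa3 UMIs, with up to 16 of Cma1.

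Levels below are CPM, the UMIs of a gene summed over the named cells of a library and scaled to a total of 1000000 UMIs, with exact Poisson 95% intervals. The mast cell-like sums were 22014 UMIs in the control, 148535 in the BTYNB, 5081 in the anti-PD-1 (1 cell) and 46284 in the combination library. A gene counted as higher or lower if its ratio to the other leukocytes on the log2(CPM + 10) scale was at least 2-fold in each of the control, BTYNB and combination libraries. It had to have at least 30 UMIs in 1 of the sums compared. By this rule 217 of 14587 genes (1.49%) were higher and 616 (4.22%) lower. The counting interval of the ratio left out no change in all 3 libraries for 125 of the higher and 110 of the lower genes. Of the 11 markers that chose these cells, 10 were among the higher genes and Rgs13 had too few UMIs, and the median log2 ratio of all genes was -0.31 in the control, -0.17 in the BTYNB and -0.22 in the combination library.

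Of the 7 granule proteases tested outside the rule, 1 of them (Tpsab1) a choosing marker, 6 were higher and 1 was lower. Cpa3 itself stood at 33342 CPM (30974 to 35844) in the control, 26230 (25412 to 27066) in the BTYNB, 3149 (1800 to 5114) in the anti-PD-1 and 30767 (29189 to 32407) in the combination library, and at 0 to 5.83 CPM in other leukocytes. Cma1 stood at 11765, 15424, 4920 and 15815 CPM in the same order. The tryptase Tpsb2 stood at 9767, 12031, 2755 and 12056 CPM, and the chymase Mcpt4 at 12038, 11445, 0 and 10544 CPM. The single anti-PD-1 cell lay below the 3 libraries with several such cells in all 4 genes. It held 1 UMI each of Kit, Mrgprb1, Mrgprb2, Hdc and Gata2 and 0 of Ptprc. Its tumour marker level, given below, was above that of the library's other leukocytes. What part of its RNA was that of a mast cell was not tested. Tpsab1, the second tryptase and one of the 11 choosing markers, stood at 590.5, 714, 394 and 648 CPM.

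Gzmb, granzyme B, stood at 2589 CPM (1961 to 3355) in the control, 2451 (2205 to 2716) in the BTYNB and 1232 (933 to 1596) in the combination library, against 5.40, 37.3 and 11.8 CPM in other leukocytes. It was at 0 UMIs in the anti-PD-1 cell. All 57 control UMIs of Gzmb lay in 1 cell, as did 56 of 57 in the combination library. In the BTYNB library 363 of 364 lay in 5 of 19 cells. Mcpt2, another protease counted as higher, had 29 of 31 control UMIs in 1 cell and all 11 combination UMIs in 1 cell. The Poisson intervals do not cover such differences between cells. Prss34, a protease best known from basophils, stood at 363, 242, 197 and 454 CPM in the control, BTYNB, anti-PD-1 and combination libraries. Ctsg, cathepsin G, stood at 227, 491.5, 197 and 756 CPM. Gzma, granzyme A of cytotoxic lymphocytes, was at 0 UMIs in all 30 cells and was the 1 protease counted as lower, at 11.8, 117 and 20.5 CPM in the other leukocytes of the control, BTYNB and combination libraries. A count of 0 had an interval up to 168, 24.8 and 79.7 CPM in those libraries, so a lower level was detectable only in the BTYNB library.

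Of 15 genes of the IgE receptor and its signalling, 3 were higher and none lower. Fcer1a, the IgE-binding chain and a choosing marker, stood at 2589 CPM in the control, 3104 in the BTYNB, 787 in the anti-PD-1 and 4192 in the combination library, and at 0 to 0.349 CPM in other leukocytes. Ms4a2, the beta chain and also a choosing marker, stood at 727, 673, 0 and 605 CPM. Lat2, an adaptor below the receptor, stood at 545, 579, 197 and 886 CPM against 84.5 to 130 CPM in other leukocytes. The shared gamma chain Fcer1g was not 2-fold apart in the 3 libraries with several cells, at 1908, 1784, 197 and 2333 CPM against 1308 to 2113 CPM in other leukocytes. The kinases Lyn and Syk were not called in the 3 libraries together.

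Among 20 receptors of cytokines and growth factors, Kit and Il1rl1 were higher and 4 were lower. Kit, a choosing marker, stood at 1045, 970, 197 and 1124 CPM in the control, BTYNB, anti-PD-1 and combination libraries. Il1rl1, the receptor of the alarmin IL-33, had no part in the choice and stood at 2362 CPM (1764 to 3098) in the control, 2882 (2615 to 3168) in the BTYNB, 394 (47.7 to 1422) in the anti-PD-1 and 3500 (2982 to 4083) in the combination library. In other leukocytes it stood at 2.11 to 12.5 CPM. Csf2ra, Il7r, Il6ra and Ifngr1 were lower. Csf2ra, the GM-CSF receptor chain, stood at 182, 60.6 and 151 CPM in the control, BTYNB and combination libraries, against 503, 419 and 638 CPM in other leukocytes.

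**Figure D3:**
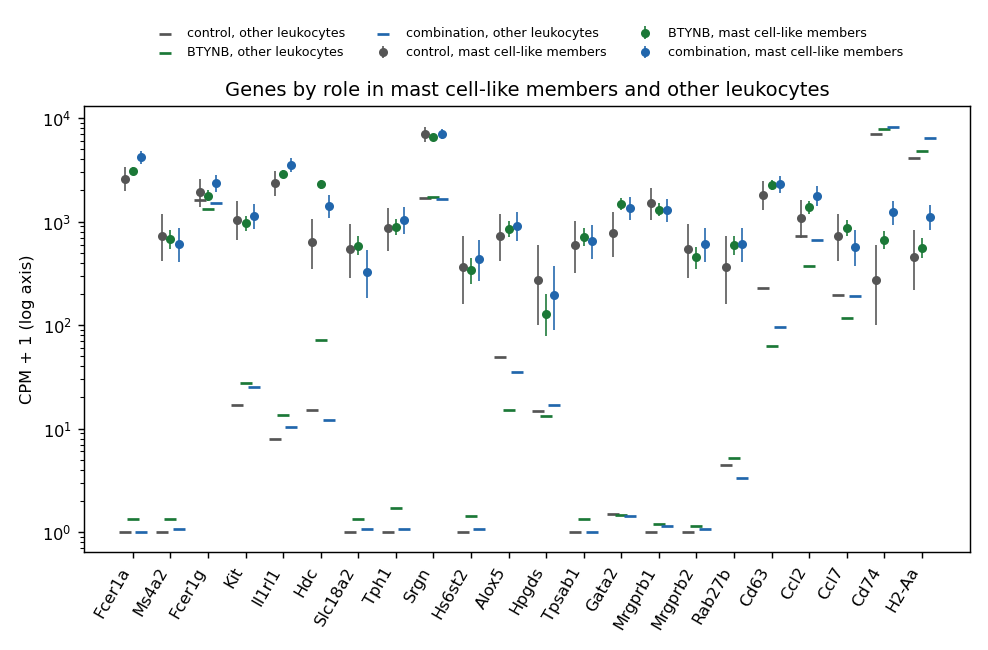
The plot of levels (y axis, CPM + 1, log axis) of genes by role in mast cell-like cells (points with exact Poisson 95% intervals) and in other leukocytes (dashes) of the control, BTYNB and combination libraries. Points lie above dashes from Fcer1a to Ccl7, closest for Fcer1g and Ccl2, and below them for Cd74 and H2-Aa.

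Of 6 genes of biogenic amines, 3 were higher and none lower. Hdc, the enzyme that makes histamine and a choosing marker, stood at 636 CPM (348 to 1067) in the control, 2289 (2052 to 2546) in the BTYNB, 197 (4.98 to 1097) in the anti-PD-1 and 1404 (1084 to 1790) in the combination library. Tph1, the first enzyme of serotonin synthesis outside the brain and no choosing marker, stood at 863, 882, 394 and 1037 CPM and at 0 to 0.697 CPM in other leukocytes. Slc18a2, the vesicular monoamine transporter and a choosing marker, stood at 545, 586, 0 and 324 CPM.

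Of 11 genes of proteoglycan and heparin synthesis, 3 were higher and none lower. Srgn, serglycin, the core protein to which granule heparin is attached, stood at 6996 CPM in the control, 6611 in the BTYNB, 984 in the anti-PD-1 and 7022 in the combination library, against 1648 to 2033 CPM in other leukocytes. Its log2 ratio was 2.06, 1.92 and 2.09 in the control, BTYNB and combination libraries. Ndst2, a sulfotransferase that heparin needs, stood at 363, 202, 0 and 216 CPM, and Hs6st2, a heparan sulfate 6-O-sulfotransferase, at 363, 337, 0 and 432 CPM.

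Of 9 genes of eicosanoid synthesis, Alox5 and Hpgds were higher and Ptgs2 and Ltc4s lower. Alox5, the 5-lipoxygenase that starts leukotriene synthesis, stood at 727, 855, 0 and 907 CPM in the control, BTYNB, anti-PD-1 and combination libraries, against 14.0 to 47.6 CPM in other leukocytes. Hpgds, the haematopoietic synthase of prostaglandin D2, stood at 273, 128, 197 and 195 CPM. Ptgs2, the inducible cyclooxygenase, and Ltc4s, the leukotriene C4 synthase, were at 0 UMIs in all 30 cells, with 61.85 to 108 CPM and 29.4 to 231 CPM in other leukocytes. For Ptgs2 the interval of the ratio included no change in the control and combination libraries.

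Of 22 cytokines and chemokines, Tnf and Ccl7 were higher and Il1b, Ccl6, Ccl9 and Cxcl2 lower. For Il1b, at 0 UMIs against 83.0 CPM in the control, the interval of the ratio included no change in that library. Ccl7, a monocyte attractant, stood at 727 CPM in the control, 862 in the BTYNB, 0 in the anti-PD-1 and 562 in the combination library, against 192, 116, 396 and 188.5 CPM in other leukocytes. Tnf stood at 318, 135, 0 and 173 CPM. Ccl2 was above the other leukocytes in the 3 libraries with several cells, at 1090, 1373 and 1772 CPM against 720, 375 and 655 CPM, but its log2 ratio of 0.59 in the control kept it from being called. Cxcl2, a neutrophil attractant, had 1 UMI over the 30 cells and was the gene furthest below the other leukocytes, where it stood at 759 to 1529 CPM. Il4, a type 2 cytokine, had 14 UMIs in the BTYNB library and 1 in the combination library.

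Of 20 transcription factors, 4 were higher and 7 lower. Gata2, a choosing marker, stood at 772, 1474, 197 and 1340 CPM in the control, BTYNB, anti-PD-1 and combination libraries, and at 0.420 to 1.58 CPM in other leukocytes. Mitf, a factor of mast cells and melanocytes, stood at 227, 155, 0 and 194.5 CPM against 29.98 to 46.6 CPM. Meis1 and Ikzf2 were the other two. Spi1 and Irf8, factors of the myeloid lineages, were among the lower ones. Spi1 stood at 45.4, 60.6, 0 and 0 CPM against 171 to 201 CPM in other leukocytes. For 5 of the 7, Spi1 included, the interval of the ratio included no change in at least 1 library.

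Of 18 G protein-coupled receptors, 3 were higher and 6 lower. Mrgprb1 and Mrgprb2, receptors of the Mas-related family, are choosing markers. Mrgprb1 stood at 1499, 1306, 197 and 1296 CPM, and Mrgprb2, which binds cationic peptides and drugs, at 545, 451, 197 and 605 CPM. Adora3, an adenosine receptor, stood at 90.9, 87.5, 0 and 238 CPM against 5.88 to 11.6 CPM in other leukocytes. The chemokine receptors Ccr1, Ccr2 and Cxcr4 were lower with C5ar1, S1pr1 and Gpr35. Ccr2 stood at 0, 53.9 and 281 CPM in the control, BTYNB and combination libraries, against 832, 869 and 873 CPM. All 13 of its combination UMIs lay in the 1 cell with 23 UMIs of the macrophage genes Csf1r, C1qa, C1qb and Adgre1. For Cxcr4, S1pr1 and Gpr35 the interval of the ratio included no change in at least 1 library.

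Among 21 paired and inhibitory receptors Cd200r3 was higher and Siglece, Fcgr2b and Cd244a lower. Cd200r3 stood at 454, 478, 787 and 691 CPM against 1.72 to 5.40 CPM in other leukocytes. Of 18 adhesion and surface genes, Itga2b, Cd63, Cd81 and Cadm1 were higher, and Itgae, Itgam and Itgb2 were among the lower ones. Cd63, a granule membrane protein, stood at 1817, 2262, 590.4 and 2290 CPM against 62.0 to 242 CPM. Itgam, an integrin of macrophages and granulocytes, stood at 0, 26.9, 0 and 130 CPM against 418 to 1256 CPM, and all 6 of its combination UMIs lay in the cell with 23 macrophage UMIs. Of 15 degranulation genes only Rab27b, a GTPase of granule docking, was called, at 363, 592.5, 394 and 605 CPM against 2.31 to 6.32 CPM.

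Of 22 immediate early genes, Jun was higher, with log2 ratios of 2.25, 2.13 and 1.97 in the control, BTYNB and combination libraries, and Egr2, Dusp2, Nr4a2, Klf4 and Btg2 were lower. Fos, the partner of Jun, was not 2-fold apart, at 2044, 2861, 2559 and 4840 CPM against 2350 to 3404 CPM in other leukocytes. No heat shock gene was higher, and Hspa1a was lower. Of 17 NF-kB response genes and 24 interferon response genes, none was higher and 3 of each were lower, with no change inside the interval of at least 1 library for all of these except Ifitm3. Of 19 cell cycle genes none was called in the 3 libraries together, and 13 were higher in the BTYNB library alone, where 921 of 14581 genes (6.32%) were higher and 1836 (12.6%) lower. Without the 24077-UMI cell 7 of the 19 were higher there, against 6.4% of all genes. Top2a, at 545 CPM with that cell, stood at 209 CPM without it, against 134 CPM in other leukocytes. Mki67 stood at 1227, 303 and 454 CPM in the control, BTYNB and combination libraries, against 388, 110 and 236 CPM in other leukocytes. It stood at 249 CPM in the BTYNB library without the 24077-UMI cell, and at 194 CPM in the combination library without the cell with 23 macrophage UMIs, below the other leukocytes there. Igf2bp1, the target of BTYNB, was at 0 UMIs in all 30 cells and at 0.897 to 2.11 CPM in other leukocytes. As 1 UMI was already 45.4 CPM in the control and 21.6 CPM in the combination library, these counts could not be told from the level of other leukocytes.

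Of 12 MHC genes, none was higher and the 7 of class II antigen presentation were lower: H2-Aa, H2-Ab1, H2-Eb1, H2-DMa, H2-DMb1, Cd74 and Ciita. Cd74, the invariant chain, stood at 273 CPM in the control, 667 in the BTYNB, 197 in the anti-PD-1 and 1232 in the combination library, against 7025, 7788, 7162 and 8268 CPM in other leukocytes. In the BTYNB library 69 of its 99 UMIs came from 1 cell. The combination value rested on the cell with 23 macrophage UMIs, which held 59 UMIs of the macrophage lysozyme Lyz2. Without that cell Cd74 stood at 111 CPM there, and H2-Aa at 83.2 instead of 1102 CPM.

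By the median over a list's genes of the mean log2 ratio of the 3 libraries, the roles ran from granule proteases (5.13) and biogenic amines (4.20) over proteoglycan and heparin synthesis (1.19), cell cycle genes (0.76), IgE receptor signalling (0.43), degranulation (0.30) and heat shock genes (0.30) to cytokine receptors (-0.12) and the 3 Igf2bp genes (-0.13). All genes tested had a median of -0.21. Cytokines and chemokines (-0.28), paired receptors (-0.49), immediate early genes (-0.55), adhesion genes (-0.61), eicosanoid synthesis (-0.76), interferon response genes (-0.81), transcription factors (-0.95), NF-kB response genes (-0.96), G protein-coupled receptors (-1.40) and MHC genes (-2.63) stood below it. Medians cover only genes with enough UMIs, such as 7 of 10 granule proteases outside the rule and 6 of 8 biogenic amine genes. The 11 choosing markers had to be high in these cells, and some of these lists hold them. Without them, 5 of 6 granule proteases (median 5.02), 1 of 4 biogenic amine genes (2.48), 1 of 13 genes of IgE receptor signalling (-0.29), 1 of 19 cytokine receptors (-0.16), 3 of 19 transcription factors (-0.999) and 1 of 16 G protein-coupled receptors (-1.72) were higher, so the IgE receptor list then stood below the median of all genes.

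Outside these lists, Serpinb1a, an inhibitor of neutrophil-type proteases, stood at 2317, 2067, 394 and 1837 CPM against 20.03 to 42.2 CPM in other leukocytes. Muc13, a transmembrane mucin, stood at 454, 330, 0 and 518.5 CPM, and Atp8b5, a phospholipid-transporting ATPase, at 318, 518, 394 and 454 CPM. By the smallest log2 ratio over the 3 libraries the leading genes outside the choosing markers were Il1rl1 (7.00), Tph1 (6.38), Gzmb (5.70), Serpinb1a (5.48), Hs6st2 (5.06) and Atp8b5 (5.04). Of these, Gzmb rested mainly on 1 cell in the control and 1 cell in the combination library. At the other end were Cxcl2 (-5.52), Mgl2 (-4.66), Arg1 (-4.42) and Retnla (-4.28), the last 3 being genes of macrophages and monocyte-derived cells.

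Markers of other cell types in these 30 cells summed as follows. The rule had capped the UMIs of Cd3d, Cd3e, Cd3g, Cd79a, Cd79b and the keratins Krt7, Krt8, Krt18 and Krt19. The T cell, B cell and tumour sums were therefore low partly by selection. Cells with at least 3 keratin UMIs were in turn chosen for those keratins. The 10 macrophage and monocyte markers summed to 182 CPM in the control, 209 in the BTYNB, 0 in the anti-PD-1 and 2744 in the combination library, where leaving out the cell with 23 macrophage UMIs brought it to 27.7 CPM. In other leukocytes they summed to 5629 to 18933 CPM. The 10 basophil markers outside the rule, of which Fcer1a, Ms4a2 and Gata2 are also choosing markers, summed to 4951, 6436, 1968 and 7368 CPM in the control, BTYNB, anti-PD-1 and combination libraries, against 79.0 to 305 CPM in other leukocytes. All 8 T cell markers and all 7 markers of NK and innate lymphoid cells were at 0 UMIs. The 8 dendritic cell markers summed to 0, 67.3, 0 and 367 CPM, with Flt3, Xcr1 and Clec9a at 0 UMIs, and the 7 neutrophil markers to 0, 33.7, 0 and 0 CPM. The 9 eosinophil, 7 B cell and 5 erythroid markers summed to at most 45.4 CPM, and the 4 megakaryocyte and platelet markers to at most 168 CPM. The 8 tumour markers summed to 590.5, 53.9, 1968 and 238 CPM, against 197 to 508 CPM in other leukocytes and 3628 to 4126 CPM in cells with at least 3 keratin UMIs, and Krt7, Krt18 and Msln were at 0 UMIs. The part of such RNA in the levels above was not tested. Scrublet, a caller of doublets that marked 0.0127 to 2.30% of cells per library and so marked too few in some, put 4 of the 30 among the top 5% of scores: 0 in the control, 1 in the BTYNB, 1 in the anti-PD-1 and 2 in the combination library.

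The mast cell-like cells were not alike in Mcpt8, a protease of the chymase gene cluster on chromosome 14 that is best known from basophils. It held 23 to 88 UMIs in 7 cells (1 in the control, 5 in the BTYNB and 1 in the combination library) and 0 or 1 UMI in the other 23. Split at 3 Mcpt8 UMIs, a split made after the values had been seen, the 7 cells stood apart in named genes. Gzmb, which lies in the same cluster, held 28 to 184 UMIs in each of the 7 cells and 0 or 1 UMI in each of the 23, or 476 against 2 UMIs in all. Scin, scinderin, an actin-severing protein, held 98 against 1 UMI, and the chemokines Ccl4 and Ccl3 held 90 and 61 UMIs against 0. Of the 90 Ccl4 UMIs, 88 lay in the BTYNB library, with 1 each in the Mcpt8 cells of the control and combination libraries. Gzmb and Ccl4 led the ranking of genes by this split. How many of all genes separated the cells as fully was not counted.

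Other genes were missing from the 7 cells. Mrgprb1 held 0 UMIs in them and 288 UMIs in 21 of the other 23 cells. Tpsab1 held 0 against 151 UMIs, Ccl7 0 against 170, the adhesion gene Cadm1 0 against 90 and the homeobox gene Meis2 0 against 81. Tph1 held 2 UMIs in 1 cell against 198 in 19 cells. Ly6a held 4 UMIs in 2 cells against 358 in 21 cells. Prss34, the other basophil protease, did not go with Mcpt8, since it held 8 UMIs in 1 of the 7 cells and 58 UMIs in 8 of the 23.

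**Figure D4:**
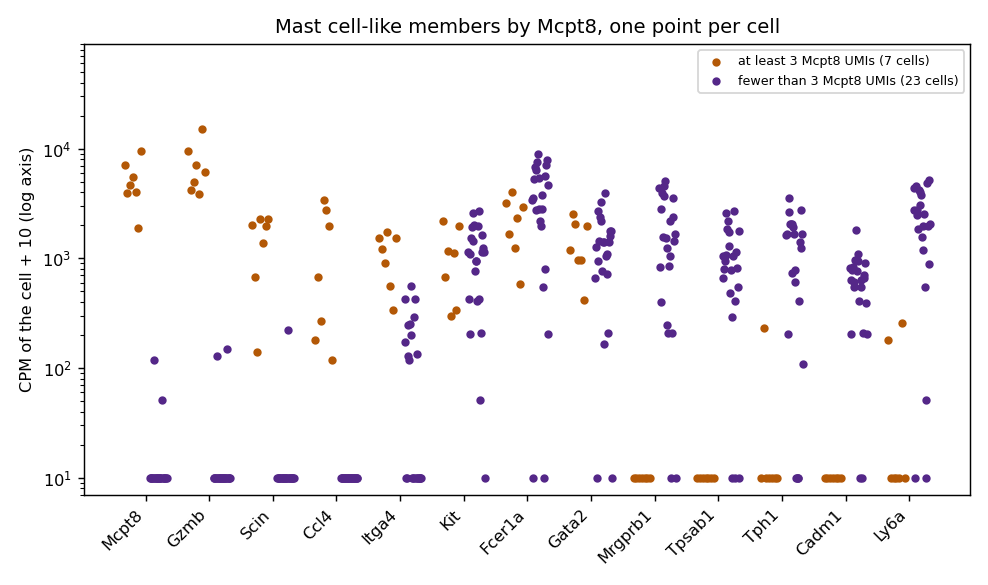
The plot of levels (CPM of the cell + 10, log axis) of selected genes in each of the 7 mast cell-like cells with at least 3 Mcpt8 UMIs and the 23 without, 1 point per cell. Gzmb stands at 3849 to 14989 CPM in every Mcpt8 cell and at most at 140 CPM in the others, while Mrgprb1 and Tpsab1 stand at 0 in all 7.

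Mrgprb2 held 5 UMIs in 1 of the 7 cells and 103 UMIs in 20 of the 23, and Rgs13 held 0 against 39 UMIs in 17 of the 23. Kit, Fcer1a, Gata2 and Hdc, which are among the markers that chose the cells, were found in all 7. Kit held 3 to 18 UMIs in each of them, Fcer1a 7 to 31, Gata2 5 to 23 and Hdc 4 to 28. Cpa3 held 4 to 362 UMIs and Cma1 13 to 154 UMIs in each, so none met the rule for the basophil class. Mcpt4 and Tpsb2 were thinner, with UMIs in 2 and 3 of the 7 cells against 21 and 22 of the 23. Il1rl1 stood at 1353 CPM over the 7 cells and at 3503 CPM over the others, and Fcer1a at 2078 and 3672 CPM.

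Ranked in the BTYNB library (5 against 14 cells), 43 of 505 genes (8.51%) were at least 2-fold higher in the Mcpt8 cells and 68 (13.5%) lower, around a median log2 ratio of 0.04. The higher genes include Mcpt8, which made the split, and the lower ones include Mcpt4, Cma1 and Tpsb2 of the rule. A gene could meet the UMI minimum in either sum, and the sum of the 14 other cells was the deeper one. Genes high in those cells thus entered more easily, so the shares of higher and lower genes cannot be set against each other. Rgs2, a regulator of G protein signalling, was among the higher ones at 3305 against 226 CPM, and so were Cd69, an early activation antigen, at 640 against 49.2 CPM and Itga4, an integrin chain, at 938 against 157 CPM. The control held little Rgs2, with 2 UMIs in its Mcpt8 cell and 2 in its other cells. Mcpt2, a chymase of mucosal mast cells, rested on 1 cell in the BTYNB library, with 82 of 85 UMIs. H2-Ab1 and Cd74 rested on another, with 71 of 73 and 69 of 69 UMIs. Leaving out the 24077-UMI cell and the cell with most macrophage UMIs, both with fewer than 3 Mcpt8 UMIs, kept Gzmb at 7669 against 15.9 CPM and Mrgprb1 at 0 against 2294 CPM.

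The marker-poor members were 1 cell in the control, 5 in the BTYNB, 19 in the anti-PD-1 and 2 in the combination library. The control cell held 1 UMI each of Mcpt4, Cma1 and Tpsb2 and 21 UMIs of the same 4 macrophage genes. The 5 of the BTYNB library held 0 to 2 Cpa3 UMIs, 1 of them being the cell of the basophil class. In the anti-PD-1 library 18 of the 19 entered through Cma1 alone, with no UMI of Cpa3, Mcpt4 or Tpsb2, and are called Cma1-only below. The 19th held 3 Tpsb2 UMIs beside 85 of Lyz2 and 17 macrophage UMIs.

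The Cma1-only cells carried no UMI of Kit, Fcer1a or Ptprc, the last of which encodes the leukocyte antigen CD45 and stood at 444 CPM in other leukocytes of the library. Hdc was the 1 mast cell marker found in most of them (15 of 18 cells, 433 CPM). Cells with at least 3 keratin UMIs, here called keratin-carrying cells, held Hdc too, at 69.2 to 74.3 CPM over the 4 libraries. In the Cma1-only cells, genes that stood above other leukocytes included Pgc, the gastric pepsinogen progastricsin, at 908 CPM against 20.03 CPM, Mpzl2, an epithelial adhesion gene, at 317 against 3.16 CPM, Plvap at 433 against 8.96 CPM and Mfge8 at 815 against 32.7 CPM. Wt1 and Lgals7, from the tumour list, stood at 771 and 714 CPM, and the 8 tumour markers summed to 1759 CPM against 508 in other leukocytes and 4126 in keratin-carrying cells. These levels describe cells chosen for Cma1 and few keratin UMIs.

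Cells that held Cma1 together with at least 3 keratin UMIs, and so were no members, were common in the anti-PD-1 library. Of its 11111 keratin-carrying cells, 2067 held at least 3 Cma1 UMIs (18.6%), against 9 of 7169 in the control (0.126%), 3 of 4207 in the BTYNB and 5 of 5002 in the combination library. In those 2067 cells Cma1 stood at 783 CPM, against 757 CPM in the Cma1-only members and 21.7 CPM in the other 9044 keratin-carrying cells. Pgc stood at 685 CPM, against 908 and 75.7 CPM, and Emb, embigin, at 1736 CPM, against 3864 and 293 CPM. Gkn2, the gastric gastrokine, did not run the same way: it stood at 1136 CPM in the 2067 cells, at 14.4 CPM in the Cma1-only members and at 50.0 CPM in the others.

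**Figure D5:**
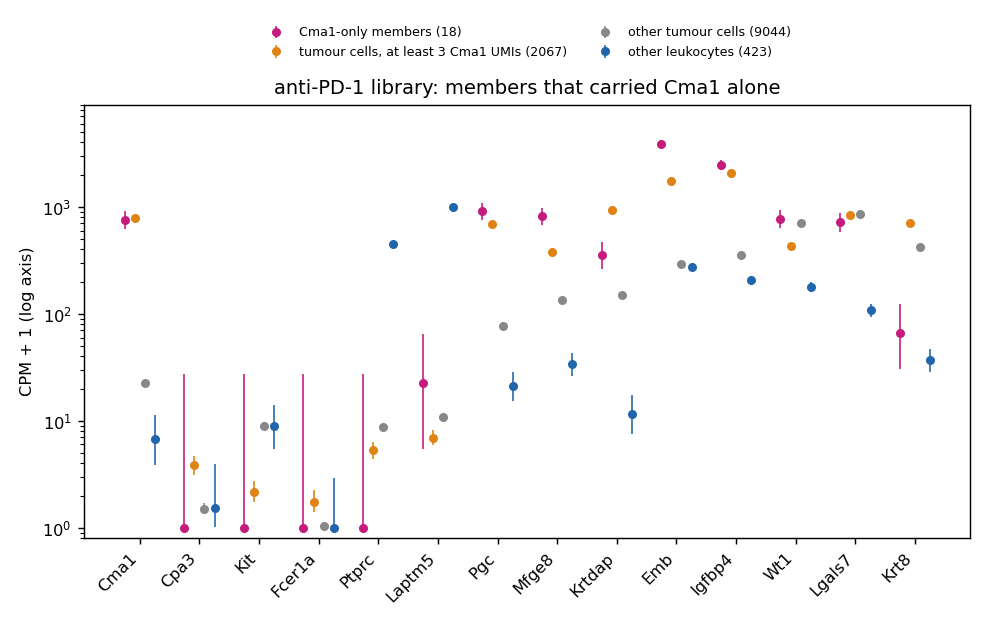
The plot of levels (CPM + 1, log axis, exact Poisson 95% intervals) in 4 kinds of cell of the anti-PD-1 library: Cma1-only members, keratin-carrying cells with at least 3 Cma1 UMIs, other keratin-carrying cells and other leukocytes. The Cma1-only members lie beside the keratin-carrying cells with Cma1 for Cma1, Pgc and Igfbp4, and at 0 for Cpa3, Kit, Fcer1a and Ptprc.

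The choice of members near the threshold touched mainly the anti-PD-1 library. Members with only 3 to 5 marker UMIs numbered 12 of 20 there, 1 of 5 in the control, 3 of 24 in the BTYNB and 2 of 8 in the combination library. Other cells with 2 marker UMIs, whatever their Cd3, Cd79 and keratin UMIs, numbered 366 in the anti-PD-1 library. In the control, BTYNB and combination libraries they numbered 29, 15 and 7. They include keratin-carrying cells, and how many met the other limits of the rule was not counted. Of the 20 anti-PD-1 members, 17 held at least 1 keratin UMI.

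Taken as the rule gives it, the mast class could be compared with other leukocytes in the BTYNB and anti-PD-1 libraries, which held at least 20 such cells. There 145 of 14583 genes (0.994%) were at least 2-fold higher in both and 627 (4.3%) lower. Genes of the rule were not taken out of these counts. With scaling by the median of ratios between the sums, 43 were higher and 849 lower. The leading gene outside the rule was Hdc, at 2111 against 71.1 CPM in the BTYNB and 409.9 against 26.4 CPM in the anti-PD-1 library. Nedd4, a ubiquitin ligase, followed at 508 against 78.9 CPM and 961 against 182 CPM. Kit was higher only in the BTYNB library, at 892 against 26.4 CPM, and stood at 6.72 against 7.91 CPM in the anti-PD-1 library. Fcer1a stood at 2854 and 26.9 CPM in the 2 libraries, and the anti-PD-1 value came from the 4 UMIs of its 1 mast cell-like cell. The genes of the treatments were not compared with each other, since no treatment and its reference library (control, or a single agent for the combination) both held 20 cells of a class.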

How the data were processed

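Single-cell RNA was captured from ascites with BD Rhapsody beads in 4 libraries, 1 per group, each of pooled animals. Per the study's methods the authors ran the BD Rhapsody Sequence Analysis Pipeline, and per the labels the build was GRCm39. The authors deposited raw counts of UMIs per gene and cell, with 29835 genes over the joined matrices. Doublet calls and cell types of the authors were not used here.

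Groups came from the treatment labels. Cells needed at least 200 genes and at most 33% mitochondrial UMIs, following the study's thresholds, and doublets were not removed. The leukocyte rule had named 4 genes, of which 3 (Ptprc, Cd52 and Laptm5) were matched by symbol. Of the gene list entries, 7 had no match in the files. The members, lists and comparisons were chosen with earlier results of these data known. UMIs were summed per library and kind of cell and expressed as CPM with a pseudocount of 10 CPM for log2 ratios. A gene needed at least 30 UMIs in 1 of the sums, and a library at least 20 cells of a class, or 4 mast cell-like cells. Named genes were the 5 markers of the rule, the 20 genes with the largest smallest log2 ratio over libraries, and members of the lists, leaving out mitochondrial, ribosomal and unnamed genes. The further markers, the mast cell-like class and the Mcpt8 split were added after seeing the data, and genes of the Cma1-only cells and those without list membership were chosen after their values were seen. Intervals are exact (Clopper-Pearson for shares, Poisson for counts) at 95%, also for counts of 0. No p-value was computed, since no group had a second library. The ranking was tested on simulated sums of the BTYNB library's depth, without variation between cells and without a requirement of several libraries. The simulation therefore leaves the effect of single cells and of the smaller sums unchecked. Promoter sequences are RefSeq, GRCm38.p6, and were matched by symbol for 12 of 15 genes. Python 3.11.15, NumPy 2.4.6, SciPy 1.17.1, pandas 2.3.3, scanpy 1.11.5 and matplotlib 3.10.9 were used.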

Additional observations from a re-analysis of the deposited data

Results flagged for a closer look

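RNA of granule proteases appeared in cells with at least 3 keratin UMIs, which were no members and entered no comparison of the mast cell-like cells, above its level in the same cells of the control library. Cma1 stood at 193.9 CPM in these cells of the anti-PD-1 library and at 3.64 CPM in the control. Mcpt1, a mucosal mast cell chymase, stood at 3.60 CPM in the anti-PD-1 library and 0.0394 in the control, and Mcpt2 at 5.20 CPM and 0.0131. Mcpt8 stood at 3.92 CPM in the anti-PD-1 library (330 UMIs in 274 cells) and at 1.04 CPM in the BTYNB library (71 UMIs in 2 cells), against 0.0131 CPM in the control. Each value is of 1 library.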

How the results depend on the processing

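Leaving out the lineage limits gave a mast class share of 0.192% of kept cells in the control and 17.4% (2092 cells) in the anti-PD-1 library, the latter with 2072 cells over the keratin limit. A floor of 5115 UMIs gave 0.254% in the BTYNB library. The anti-PD-1 share was 0.0333% with at least 10 marker UMIs and 0.00832% with at least 3 or 5 further markers, and the basophil class of the BTYNB library was 0% with at least 10 marker UMIs. For the mast class against other leukocytes, higher and lower genes numbered 874 and 1790 with at least 10 marker UMIs, 895 and 1875 without the top 5% of scrublet scores, 813 and 1612 without members with macrophage UMIs, and 813 and 1612 in the BTYNB library alone, and in all of these only the BTYNB library held 20 cells. They numbered 486 and 2329 with a pseudocount of 1 CPM and 15 and 184 with 50 CPM, and 43 were higher with median of ratios scaling. For mast cell-like cells they numbered 397 and 972 with the UMI floor, which left 2 libraries, 114 and 167 with a pseudocount of 50 CPM, and 513 and 1108 against tumour cells, and 2625 were lower with 1 CPM. They numbered 409 and 1550 without the BTYNB library, 360 and 1025 without the combination library, and 399 were higher without the control library. Without the 24077-UMI cell and the cell with most macrophage UMIs, a choice made after seeing the data, they numbered 232 and 762, of which 207 and 570 were shared. Of the 20 leading genes of the mast cell-like cells, 264 of 265 values under 14 settings kept their side of the 2-fold threshold, and of those of the mast class 191 of 216 under 11 settings did, with 15 genes falling below it at least once, and none of these values changed sign. The 20 genes of the mast cell-like cells were picked from these data for log2 ratios of at least 4.636 and include choosing markers. Their staying above 2-fold was thus nearly fixed in advance and is no support for them. Not every other gene kept its direction. Mki67 of the combination library fell from 454 to 194 CPM without the macrophage-UMI cell, to below the 236 CPM of other leukocytes, and Top2a from 389 to 194 CPM, against 274 CPM. Comparisons by gene of the basophil class, and of the treatments within a class, could not be made with fewer than 20 cells. No paired analysis was possible because each group was 1 library. Sums of 5081 to 148535 UMIs limited the mast cell-like levels, 1 UMI being 45.4 CPM in the control.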
